A study of Mus musculus with 4 samples.

Results

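The vacuolar proton pump (V-ATPase) is a rotary motor that spends ATP to drive protons into lysosomes, endosomes and the Golgi. Its cytosolic V1 domain hydrolyses ATP in a ring of alternating A and B subunits, its central rotor turns a ring of proteolipids in the membrane-bound V0 domain, and its peripheral stalks keep the rest of the machine from turning with the rotor. V1 and V0 can come apart and join again. In fibroblasts, as in other cells, the acid that the pump makes serves lysosomal digestion and receptor recycling. The pump itself takes part in the docking of the growth kinase complex mTORC1.

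The pump genes described here are 10 of the 37074 gene names on the array, namely Atp6v1a, Atp6v1b2, Atp6v1c1, Atp6v1d, Atp6v1e1, Atp6v1f, Atp6v1g1, Atp6v1h, Atp6v0d1 and Atp6ap1. They were taken by name, with every non-control probe that carries that name, which gave 15 of 56605 probes. The family was chosen by these same signals, because its subunits differed in opposite directions between siTIMP1 and siControl, so the differences of the 10 genes stand as a description without a test.

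Transcripts were measured in NIH3T3, an established mouse fibroblast line that the labels describe as dermal, after transfection with an siRNA against Timp1 (siTIMP1, 2 arrays) or a control siRNA (siControl, 2 arrays). Both groups received their siRNA on the apatite nanoparticle carrier that the labels abbreviate as sCA, both were kept in 2% fetal calf serum, and no untransfected or carrier-free cells are among these samples. The labels do not say whether the 2 arrays of a group came from separate cultures, so the spread between them may be technical. All 4 arrays lay on 1 slide with the groups at separate positions, so position and group cannot be told apart.

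The arrays carried 60-base probes and read a single dye, Cy3. Values are normalised log2 signals, that is, log2 of the scanner's processed signal less the 75th percentile of its array, and a difference is siTIMP1 minus siControl on that scale. A difference of 1 is a doubling of signal. Signals of different probes are not comparable as levels, because each probe has its own brightness. The share of spots above background ran from 45.9%, on siTIMP1 replicate 2, to 52.1%. The targeted gene Timp1 read 8.16 and 8.54 on the siControl arrays and 2.98 to 3.28 on the siTIMP1 arrays, a difference of -5.22 (SE 0.158, limma adjusted p = 0.0105), which leaves 2.68% of the control signal. With either siTIMP1 array left out, no probe of the array, Timp1 included, passed the threshold, and the adjusted p of Timp1 was then 0.137 or 0.184. No probe passed either when the variance was fitted without a trend in signal, and that of Timp1 was 0.133.

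All 10 fibroblast markers examined were well above background on every array. So was 1 of 4 epithelial markers (Krt8, not Epcam, Cdh1 or Krt18) and 1 of 3 fat markers (Fabp4, not Adipoq or Plin1), while none of the endothelial (Pecam1, Cdh5, Kdr) or skeletal muscle (Myod1, Myog, Des) markers was. Krt8 differed by 0.55 (limma adjusted p = 0.479) and Fabp4 by 0.15 (limma adjusted p = 0.819), both with overlapping groups. Of the leukocyte markers, 4 of 4 genes but only 6 of 14 probes were detected on all arrays, and their summed log2 level was 4.19 to 4.22 in siControl and 3.97 to 4.06 in siTIMP1. Such a sum runs over all probes of a list, detected or not, so its brightest probes dominate it. Itgam (-0.32) and Csf1r (-0.29) were lower in siTIMP1 without overlap, while Ptprc (0.0082) and Cd68 (0.095) overlapped, and none was called. Of the osteoclast markers 1 of 4 was detected on all arrays, the protease gene Ctsk that fibroblasts also express, and their summed level was 4.57 to 4.59 in siControl and 4.73 to 4.81 in siTIMP1. That sum is close to Ctsk alone, whose means were 4.57 and 4.76. The other tested osteoclast marker, Ocstamp, was dim and went the other way, at -0.47. The part of these shifts in the pump values was not tested.

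The catalytic ring held the widest contrast within the pump. Atp6v1b2 encodes the B subunit isoform that most tissues use, which shares the ATP-binding sites with the A subunit. Its probe A_55_P2938687, near the 3′ end of NM_007509 (it begins at base 2478; mm9 chr8:71637354-71637413, plus strand), read 4.93 and 4.99 in siControl and 3.86 and 3.91 in siTIMP1. Both siTIMP1 arrays were low and the groups did not overlap. The means were 4.96 ± 0.045 (SD, n = 2) and 3.88 ± 0.037 (SD, n = 2), a difference of -1.08 with a range of -1.14 to -1.02 over the 4 pairs of arrays. The processed signals behind these values were 5667 and 5790 against 2749 and 2848, so siTIMP1 showed 47.4% of the control signal. Each array measured RNA of a whole culture, so fewer cells with the transcript and less transcript per cell cannot be told apart.

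A separate probe, A_55_P2740331, reads Atp6v1b2 far upstream, from base 722 of the same transcript. Its 60 bases are spread over 576 bases of genome (mm9 chr8:71626723-71627298, plus strand), so it crosses a splice junction and reads spliced message. It is printed because it crosses a junction and lies at a distance from the other probe:
Atp6v1b2 junction probe: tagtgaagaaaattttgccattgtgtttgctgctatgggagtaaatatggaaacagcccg
This probe read -0.47 and -0.46 in siControl and -1.24 and -1.03 in siTIMP1. Again both siTIMP1 arrays were the low ones, with no overlap. The means were -0.47 ± 0.0067 (SD, n = 2) and -1.13 ± 0.16 (SD, n = 2), a difference of -0.67 (pairs -0.78 to -0.55), or 63.0% of the control signal. Processed signals here were 134 and 132 against 80.2 and 93.2.

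Atp6v1a encodes the A subunit, the catalytic partner of the B subunit in the same ring. Its probe A_55_P2169391 (NM_007508, from base 3577; mm9 chr16:44085826-44085885, minus strand) read 3.51 and 3.50 in siControl and 3.90 and 3.79 in siTIMP1. The order was the reverse of that of Atp6v1b2, with both siTIMP1 arrays high and no overlap. The difference was 0.34 (pairs 0.28 to 0.40), from 3.50 ± 0.0086 to 3.85 ± 0.074 (SD, n = 2 each), or 127% of the control signal. The other probe of Atp6v1a, A_65_P03308 (mm9 chr16:44115724-44115783, minus strand), was not well above background on any array and gave no usable value.

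The promoter of Atp6v1a holds the palindrome TCACGTGA, the core of the CLEAR element through which MiT/TFE factors act on lysosomal genes, and so does that of Atp6v0d1, a rotor gene. Both windows are printed to show where the palindrome lies, from RefSeq (GRCm38.p6, minus strand in both cases), with the palindrome in capitals. They cover chr16:44139334-44139441 for Atp6v1a and chr8:105566061-105566118 for Atp6v0d1:
Atp6v1a: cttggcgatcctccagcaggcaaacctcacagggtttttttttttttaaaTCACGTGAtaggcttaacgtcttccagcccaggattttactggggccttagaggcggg
Atp6v0d1: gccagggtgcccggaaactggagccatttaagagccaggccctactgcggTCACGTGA
In Atp6v1a the palindrome begins 132 bases before the annotated start, and in Atp6v0d1 it begins 4 bases before the start and runs across it. RefSeq gave a promoter, from 250 bases before to 50 after the start, for 6 of the 10 genes (Atp6v1a, Atp6v1d, Atp6v1e1, Atp6v1f, Atp6v0d1 and Atp6ap1), and 2 of the 6 hold TCACGTGA. The other 4 lie on both sides of 0 in siTIMP1 minus siControl, with Atp6v1d at -0.57, Atp6v1e1 at 0.068, Atp6v1f at 0.11 and Atp6ap1 at 0.16. Because the family was chosen from these same differences, nothing is read from how they fall beside the palindrome. Whether the palindrome has a part in them was not tested. TCACGTGA lies in 320 of all 32851 promoters listed there, which is 0.974%. The shorter E-box CACGTG lies inside TCACGTGA, and both read the same on either strand. It was found in the same 2 pump promoters and in 7.15% of all promoters. A match is a run of letters in a window and was not measured as a bound site here, and no match says only that these letters are not in this window. Over the other 16 pump genes on the array, 13 have a promoter listed there and 1 of them, Atp6v0e, holds TCACGTGA. CACGTG lies in 2 of the 13, Atp6v0b and Atp6v0e. Of the 46 partner genes described further below, 39 have a promoter. TCACGTGA lies in 4 of these 39 (10.3%: Clcn6, Clcn7, Mcoln1 and Vma21) and CACGTG in 13 (33.3%). Over all genes with a promoter the shares were 1.12% and 8.09%.

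The central rotor held the other low subunit. Atp6v1d encodes the D subunit, the shaft that the catalytic ring turns. Its only probe, A_51_P393598 (NM_023721, from base 1326; mm9 chr12:79943993-79944052, minus strand), read 5.32 and 5.29 in siControl and 4.73 and 4.74 in siTIMP1. Both siTIMP1 arrays lay well below both siControl arrays. The means were 5.31 ± 0.018 and 4.73 ± 0.0048 (SD, n = 2 each), a difference of -0.57 (pairs -0.59 to -0.56), or 67.2% of the control signal. This was the narrowest range over pairs of any pump probe that read below control. Processed signals were 7436 and 7142 against 5041 and 5058.

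Atp6v0d1 encodes the d subunit, the cap on the proteolipid ring that receives the rotor shaft. Its probe A_51_P361201 (NM_013477, from base 1149; mm9 chr8:108048778-108048837, minus strand) read 3.97 and 3.81 in siControl and 4.20 and 4.24 in siTIMP1. The groups did not overlap, with siTIMP1 the higher. The difference was 0.33 (pairs 0.23 to 0.43), from 3.89 ± 0.11 to 4.22 ± 0.029 (SD, n = 2 each), or 126% of the control signal.

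Atp6v1f, which encodes the F subunit that sits on the shaft beside D, read 6.71 and 6.51 in siControl and 6.65 and 6.79 in siTIMP1 on A_51_P310539 (NM_025381, from base 519; mm9 chr6:29420394-29420453, plus strand). Its groups overlapped, since siControl replicate 1 lay above siTIMP1 replicate 1. Its difference was 0.11 (pairs -0.06 to 0.28), within the spread of the arrays. The 3 rotor genes thus differed among themselves: the D subunit lay lower in siTIMP1, the d subunit higher, and the F subunit was not separated.

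**Figure D1:**
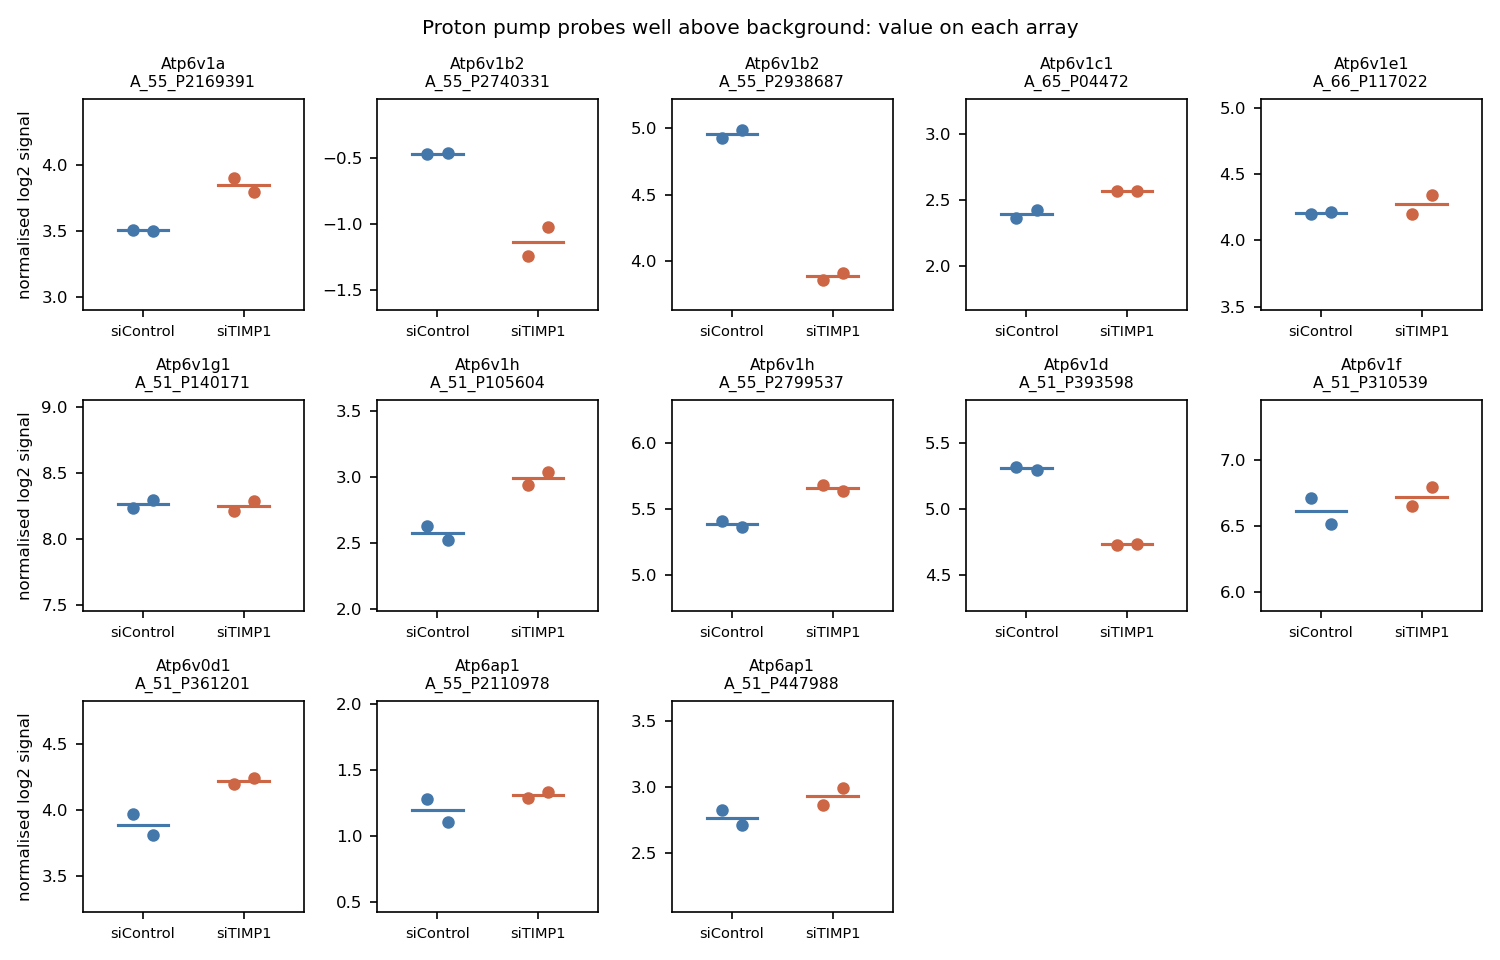
Normalised log2 signal (vertical axis) on each of the 4 arrays for the 13 pump probes well above background, 1 panel per probe with its own range, siControl in blue and siTIMP1 in orange, a point for each array and a line for the mean of 2. Both probes of Atp6v1b2 and the probe of Atp6v1d have both orange points below both blue points. The probes shown for Atp6v1a, Atp6v1h, Atp6v0d1, Atp6v1c1 and Atp6ap1 have them above.

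Among the peripheral stalk genes none was lower in siTIMP1 beyond the spread of its arrays. Atp6v1h encodes the H subunit, which sits between V1 and V0 and is known to silence V1 that has been released. Its brighter probe A_55_P2799537 (NM_133826, from base 1697; mm9 chr1:5152352-5152411, plus strand) read 5.41 and 5.36 in siControl and 5.68 and 5.64 in siTIMP1. Both siTIMP1 arrays were high, with no overlap. The means were 5.39 ± 0.033 and 5.66 ± 0.035 (SD, n = 2 each), a difference of 0.27 (pairs 0.22 to 0.32), or 121% of the control signal.

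Upstream, from base 1300 of the same Atp6v1h transcript, lies the probe A_51_P105604. Its 60 bases cross an intron of the gene, spread over 7872 bases of genome (mm9 chr1:5126004-5133875, plus strand), and it is shown as the second reading of spliced pump message:
Atp6v1h junction probe: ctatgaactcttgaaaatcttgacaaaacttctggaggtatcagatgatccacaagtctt
It read 2.63 and 2.52 in siControl and 2.94 and 3.04 in siTIMP1. The groups did not overlap and siTIMP1 was again the higher. The difference was 0.41 (pairs 0.31 to 0.52), from 2.58 ± 0.075 to 2.99 ± 0.072 (SD, n = 2 each). The last probe of Atp6v1h, A_52_P403420, lies upstream of both in the genome (mm9 chr1:5089194-5089253), carries the identifier of another transcript (ENSMUST00000192142) and was not well above background on any array.

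Atp6v1c1 encodes the C subunit, which joins the stalks to V0 and leaves when the pump comes apart. It read 2.36 and 2.42 in siControl and 2.57 on both siTIMP1 arrays on A_65_P04472 (NM_025494, from base 1671; mm9 chr15:38621773-38621832, plus strand). The groups did not overlap, though the difference was small at 0.17 (pairs 0.14 to 0.21), from 2.39 ± 0.043 to 2.57 ± 0.0019 (SD, n = 2 each).

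Atp6v1e1 and Atp6v1g1 encode the E and G subunits, whose paired coils form the stalks themselves. Atp6v1e1 read 4.20 and 4.21 in siControl and 4.20 and 4.34 in siTIMP1 on A_66_P117022 (NM_007510, from base 783; mm9 chr6:120745623-120745682, minus strand). Atp6v1g1 read 8.24 and 8.30 against 8.21 and 8.29 on A_51_P140171 (NM_024173, from base 968; mm9 chr4:63211611-63211670, plus strand). Both genes had overlapping groups. Their differences were 0.068 (pairs -0.01 to 0.15) and -0.02 (pairs -0.08 to 0.05), and leaving out 1 array turned the sign of each: Atp6v1e1 was -0.0039 without siTIMP1 replicate 2, and Atp6v1g1 reached 0.025 without siTIMP1 replicate 1.

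Atp6ap1 encodes Ac45, an accessory protein that helps assemble V0. Its brighter probe A_51_P447988 (NM_018794, from base 1447; mm9 chrX:71549319-71549378, plus strand) read 2.83 and 2.71 in siControl and 2.87 and 3.0 in siTIMP1. The arrays did not overlap, but siControl replicate 1 and siTIMP1 replicate 1 lay only 0.04 apart. The difference was 0.16 (pairs 0.04 to 0.28). A_55_P2110978, from base 1160 of that transcript (mm9 chrX:71548822-71548881), gave 1.28 and 1.11 against 1.29 and 1.34, a difference of 0.12 (pairs 0.01 to 0.22).

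**Figure D2:**
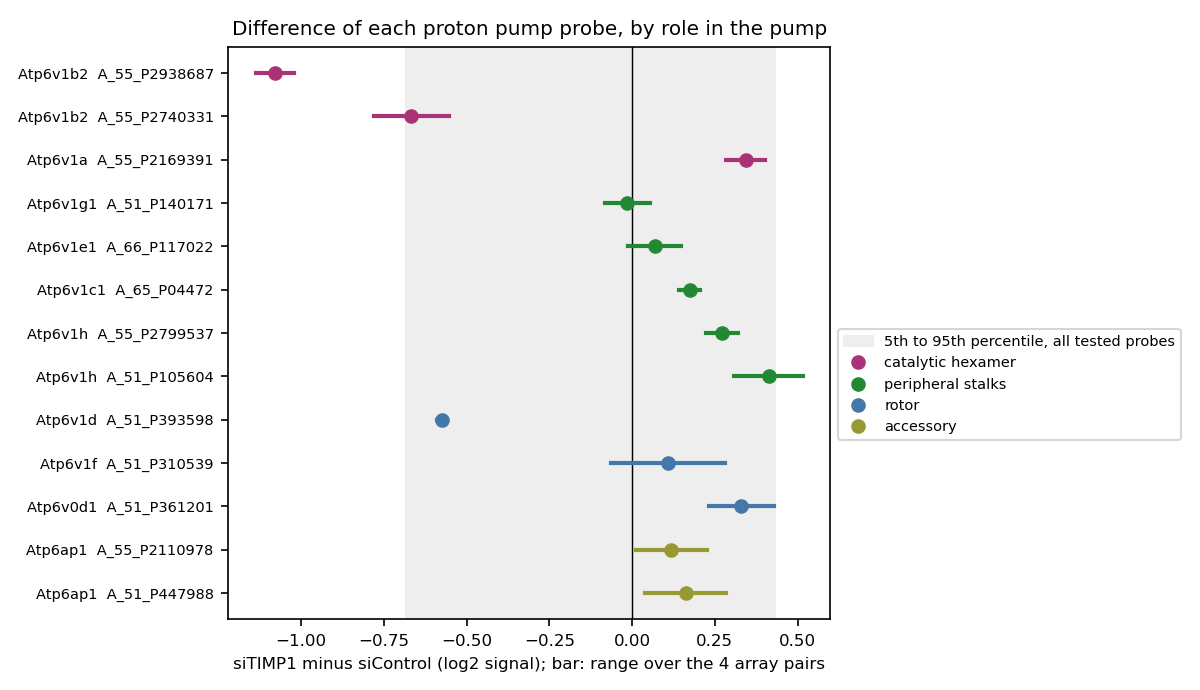
Difference in normalised log2 signal (siTIMP1 minus siControl, horizontal axis) for the 13 tested pump probes, coloured by role, with the point at the difference of means and the bar the range over the 4 pairs of arrays. The grey band runs from the 5th to the 95th percentile of all 26015 tested probes, -0.68 to 0.43, and A_55_P2938687 of Atp6v1b2 at -1.08 is the pump probe outside it.

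In order of difference the genes, each by its brightest probe, ran from Atp6v1b2 (-1.08) and Atp6v1d (-0.57) through Atp6v1g1, Atp6v1e1, Atp6v1f, Atp6ap1, Atp6v1c1 and Atp6v1h to Atp6v0d1 (0.33) and Atp6v1a (0.34). On these probes the pair ranges of Atp6v1b2 and Atp6v1d overlapped neither each other nor that of any other pump gene. The range of the junction probe of Atp6v1b2 (-0.78 to -0.55), however, held that of Atp6v1d (-0.59 to -0.56). From Atp6v1g1 upward each gene's range overlapped that of its neighbour, except between Atp6v1c1 (0.14 to 0.21) and Atp6v1h (0.22 to 0.32). The 3 genes with more than 1 tested probe (Atp6v1b2, Atp6v1h and Atp6ap1) gave the same sign on each, and the sizes differed most for Atp6v1b2. Every probe was open to the choice of the family, so this likeness is not separate evidence.

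Of the 13 pump probes tested, 9 lay above 0 and 4 below, where 52.9% and 47.1% of all tested probes did, and their median difference was 0.12 beside 0.02 over all 26015. Groups did not overlap for 7 probes higher in siTIMP1 and 3 lower, and over all tested probes for 29.8% and 23.2%. In the limma fit over all probes 0 pump probes were called higher and 2 lower (A_55_P2938687 of Atp6v1b2 and A_51_P393598 of Atp6v1d), where 0.0615% and 0.627% of all tested probes were called. As the same contrast chose the family, nothing is read from these counts. On the pump genes the median gap was 0.06 between the 2 siControl arrays and 0.07 between the 2 siTIMP1 arrays. Over all 17734 tested genes it was 0.14 and 0.11. A choice made from this contrast can favour small gaps, and the genes were not matched for signal, so nothing is read from the gaps either.

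The other subunits of the pump and its accessory proteins, none of them among the 10, come from the same samples. Of 16 such genes 11 were tested, and 0 were called in either direction, while the calls over all tested genes were 0.0846% higher and 0.699% lower. Without adjustment 3 had a p under 0.05, and 19.8% of all genes passed that mark. The difference was above 0 for 9 of the 11, as for 54.0% of all genes, with a median of 0.15 beside 0.02 over all genes. Atp6v0b and Atp6v0c encode parts of the proteolipid ring that carries the protons. Atp6v0b read 4.41 and 4.49 in siControl and 4.61 and 4.73 in siTIMP1, a difference of 0.22 (SE 0.0694, limma adjusted p = 0.210). Atp6v0c read 5.54 on both siControl arrays and 5.66 and 5.69 in siTIMP1, a difference of 0.14 (SE 0.0478, limma adjusted p = 0.241).

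Atp6ap2, the accessory protein also known as the prorenin receptor, read 3.86 and 3.73 in siControl and 4.04 and 4.02 in siTIMP1, a difference of 0.23 (SE 0.0700, limma adjusted p = 0.200). In these 3 genes the groups did not overlap, yet none passed the threshold. The highest value in the list, 0.83 for Atp6v0a4, which was picked out after its values were seen, rested on siTIMP1 replicate 1 at -0.27, with siTIMP1 replicate 2 at -1.48 and siControl at -1.73 and -1.67. Of the remaining V1 isoforms only Atp6v1g2 was tested (0.23, limma adjusted p = 0.730), and it was -0.16 without siControl replicate 2. The tissue-restricted forms Atp6v1b1, Atp6v1c2, Atp6v1e2 and Atp6v1g3, and Atp6v0d2, were not well above background on both arrays of either group. No other B subunit gene therefore had a usable value beside Atp6v1b2.

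Factors that help build the pump or that hold V1 and V0 together or apart lay on both sides of 0. All 4 assembly factors were tested and 0 were called, 2 above 0 and 2 below, with a median of -0.05. The lowest was Tmem199 at -0.27 (limma adjusted p = 0.761), with overlapping groups, which was picked out after its values were seen. The Tmem199 difference rested on siControl replicate 1 at 1.04, with siControl replicate 2 at -0.29 and siTIMP1 at 0.02 and 0.19. Tmem9 had a difference of -0.26 (limma adjusted p = 0.210), but its other tested probe gave 0.061 with overlapping groups, and the mean of both was -0.10. Ccdc115 had a difference of 0.24 (limma adjusted p = 0.269) and Vma21 of 0.17 (limma adjusted p = 0.336). Of 9 regulators of V1 and V0 association 7 were tested and 0 called, with 3 above 0, 4 below and a median of -0.01. The smallest p among these belonged to the TLDc-domain genes Ncoa7 and Oxr1, whose proteins are known to bind V1. Ncoa7 read 0.17 and 0.26 in siControl and -0.13 and -0.30 in siTIMP1, a difference of -0.43 (limma adjusted p = 0.164). Its further tested probes, both dimmer, gave -0.46 and -0.98 with no overlap, and the mean of all 3 was -0.62. Oxr1 had -0.39 (limma adjusted p = 0.253), but its other tested probe gave 0.20 with overlapping groups and the mean of both was -0.094. That other probe was dimmer, with processed signals of 22.1 to 62.9 against 190 to 284. Tbc1d24 had 0.15 (limma adjusted p = 0.404).

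Channels and exchangers that share the pump's membranes were also measured. Of 12 genes of endolysosomal ion transport 11 were tested and 0 called, with 8 above 0, 3 below and a median of 0.19. Ostm1 encodes the partner subunit of the lysosomal chloride exchanger Clcn7. It read 2.06 and 2.10 in siControl and 2.61 and 2.56 in siTIMP1, a difference of 0.50 (SE 0.0711, limma adjusted p = 0.0677). Its groups did not overlap, while its other tested probe gave a difference of -0.15 with overlapping groups and the mean of both was 0.17. That other probe was dim, with processed signals of 12.3 to 18.05 against 777 to 1159 for the first. It was not well above background on siTIMP1 replicate 2. The chloride exchangers Clcn4 and Clcn5 differed in opposite directions, at 0.33 (limma adjusted p = 0.109) and -0.42 (limma adjusted p = 0.127), and neither passed the threshold. Clcn4, named Clcn4-2 on the array, has a further tested probe with a difference of -0.07 and overlapping groups, and the mean of its 3 tested probes was 0.17.

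The pump also takes part in docking mTORC1 on lysosomes. Of 17 docking genes 16 were tested and 0 called, with 12 above 0, 4 below and a median of 0.09. Rragc, a Rag GTPase, read 4.08 and 3.83 in siControl and 4.41 and 4.29 in siTIMP1, a difference of 0.40 (limma adjusted p = 0.172). Lamtor1, which anchors the Ragulator scaffold, had 0.23 (limma adjusted p = 0.215), and Fnip2, a partner of the Rag regulator Flcn, had -0.41 (limma adjusted p = 0.125). The MiT/TFE factors that switch lysosomal genes on gave 0 calls among 3 tested, with Tfeb at -0.03 (limma adjusted p = 0.942; 0.073 as the mean of its probes), Tfe3 at 0.09 (limma adjusted p = 0.422) and Mitf at 0.27 (limma adjusted p = 0.490).

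**Figure D3:**
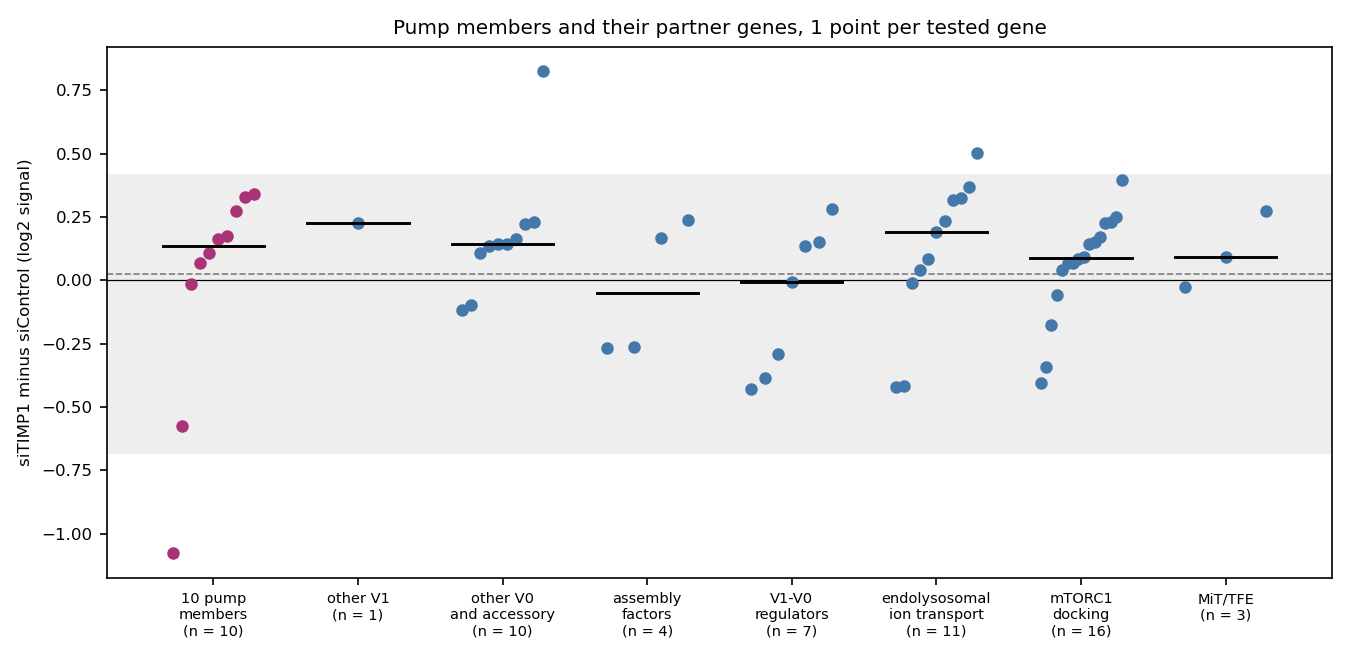
Difference in normalised log2 signal (siTIMP1 minus siControl, vertical axis) for the 10 pump genes (magenta) and for the tested genes of the other pump and partner lists (blue), 1 point per gene, with a bar at each median, a dashed line at the median of all genes and a grey band from their 5th to their 95th percentile (-0.68 to 0.42). Atp6v1b2 at -1.08 lies under the band, and Ostm1 at 0.50 and Atp6v0a4 at 0.83 lie over it.

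Over all these lists 52 of 62 genes were tested, 36 with a difference above 0 and 16 below (54.0% and 46.0% of all genes), and limma called 0. An unadjusted p under 0.05 was reached by 16 of the 52, where 19.8% of all genes reached it. There were 9 when the variance was fitted without a trend in signal, and 8 to 18 over all alternatives. Without siControl replicate 1 the calls were 3 higher (Ostm1, Lamtor3 and Rragc), and without siControl replicate 2 there was 1 lower (Tmem199). No probe of the array was called with either siTIMP1 array left out.

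Under 12 alternatives Atp6v1b2 ranged from -1.14 with quantile normalization to -0.87 as the mean of its probes, and Atp6v1d from -0.63 to -0.56. Atp6v1a ranged from 0.29 to 0.40, Atp6v0d1 from 0.25 to 0.41 and Atp6v1h from 0.21 to 0.34. Atp6v1f reached down to 0.0084 without siControl replicate 2. The other sign appeared in 3 values, all of Atp6v1e1 and Atp6v1g1 with 1 array left out. Some alternatives could hardly move a pump value. Other filters and keeping outlier spots left each as it was, and the authors' table gave nearly the same values. The mean of a gene's probes could change only genes with more than 1 tested probe.

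**Figure D4:**
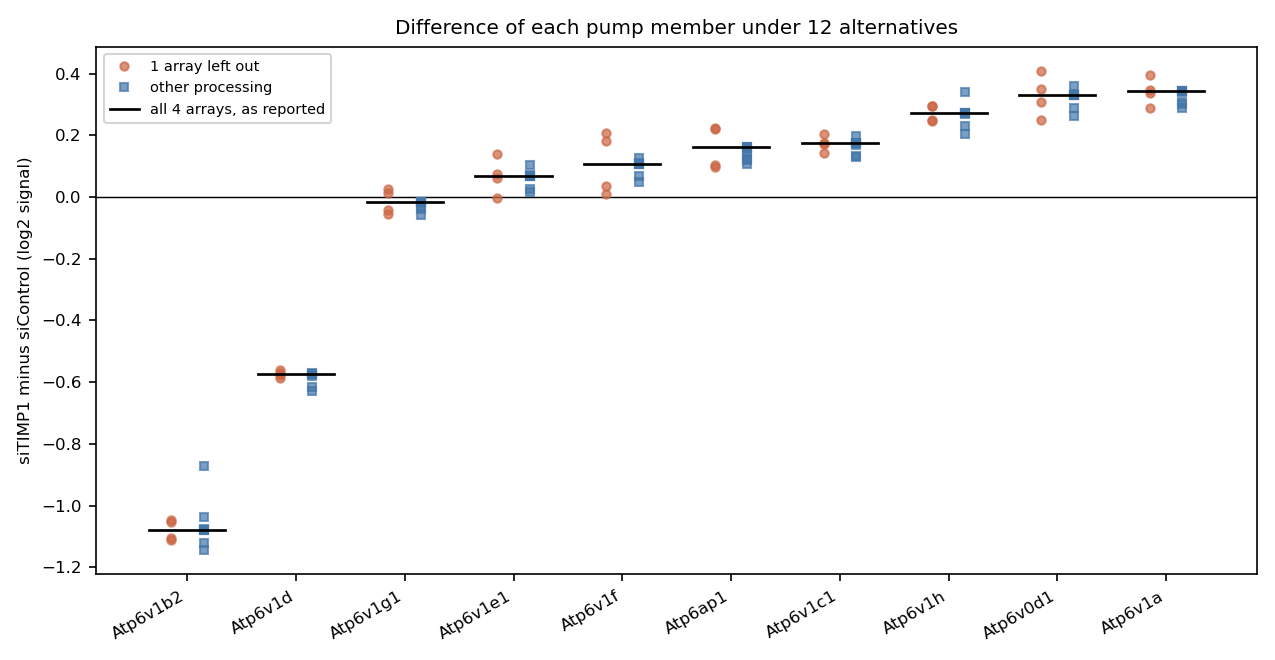
Difference in normalised log2 signal (siTIMP1 minus siControl, vertical axis) of each pump gene under 12 alternatives, circles for 1 array left out, squares for other processing and a bar for the value with all 4 arrays. Atp6v1b2 and Atp6v1d stay below 0 and Atp6v1a, Atp6v0d1, Atp6v1h, Atp6v1c1, Atp6ap1 and Atp6v1f above 0 throughout, and Atp6v1g1 and Atp6v1e1 cross it.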

How the data were processed

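The authors deposited each array's intensity values as the scanner software wrote them. The submitters' processing notes name Agilent Feature Extraction 11.5.1.1. Processed intensity is background-subtracted but unscaled between arrays, and coordinates are in mm9, per the file headers. The authors' value table holds deposited log2 values, which followed the log2 processed signal less 1 constant per array (6.90 to 6.96, column medians -3.99 to -3.86), so its scale, centring and direction are known.

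From the scanner files, log2 processed signal minus the 75th percentile of the non-control spots was computed. Outlier spots (136 to 250 of 59305 per array) were left out, and no spot was saturated. Spots of a probe were averaged, and the 26015 probes tested were those with 4 values that passed the scanner's background test on both arrays of a group. The groups, taken from the sample titles, entered 1 limma fit (version 3.58.1, R 4.3.3, eBayes with a trend). Its p-values were adjusted by Benjamini-Hochberg across the tested probes, with a threshold of 0.05. A gene stands by its tested probe of highest mean. The number of arrays limits the precision. The fit was also run on simulated arrays whose noise depended only on mean signal, as the trend assumes. That run cannot judge whether the trend suits these arrays.

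The pump genes and all lists were chosen with earlier results of these data known. The text names every pump gene, Timp1, any called list gene and up to 3 genes of smallest p per list. Promoters are from RefSeq, in a build other than the probes', and coordinates were not converted. Alternatives were normexp (offset 50), quantile normalization, the percentile over detected probes, other filters, eBayes without a trend or robust, outlier spots kept, the authors' table, a threshold of 0.1, the mean of a gene's probes and each array left out. Figures were drawn with matplotlib 3.10.9.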

Additional observations from a re-analysis of the deposited data

How the results depend on the processing

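Probes called higher and lower numbered 16 and 163. They were 124 and 334 with no filter on dim probes, 61 and 249 with robust eBayes, 181 and 384 at a threshold of 0.1, and 0 and 0 without a trend. Without 1 array they ranged from 0 to 483 and from 0 to 840, with 0 of each for either siTIMP1 array. Called list genes, 0 in each direction, became 1 higher (Ostm1) with no filter and at a threshold of 0.1. With 1 array left out they ranged from 0 to 3 higher and from 0 to 1 lower. Pump genes below 0 numbered 3, and 2 to 4 with 1 array left out. The median of all tested probes, 0.02, was 0.15 with no filter. Of 285 values of named list genes under the alternatives, 277 kept direction and side of the threshold, 4 passed it and 4 changed direction without passing it. None of these genes was called in the reported fit, so keeping the side means staying uncalled. Settings that called no probe of the array could give no other outcome, and some others left the differences unchanged. The 277 is therefore no measure of robustness. Tfeb, -0.03, was 0.073 as the mean of its probes and ranged from -0.21 to 0.15 with 1 array left out, and Atp6v1g2, 0.23, from -0.16 to 0.62. The cause was not tested. With 1 array in a group, limma assumes that it varies like the others. All arrays lay on 1 slide, so a slide block could not be fitted. No paired analysis was possible because the labels give the groups no shared replicate number.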
